A study of Mus musculus with 12 samples.

Results

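Livers injured with diethylnitrosamine (DEN) were compared between mice with and without TRIM21. The comparison held 5 of the 12 libraries of the series, namely the 2 titled DENKO (DENKO_141 and DENKO_309, genotype TRIM21 KO) and the 3 titled DENWT (DENWT_307, DENWT_995 and DENWT_996, genotype WT), grouped as their labels give them. All mice were C57BL/6 males, 8 weeks old, and liver was taken 48 h after 1 intraperitoneal injection of 200 mg/kg DEN. The only labelled difference between the groups was the Trim21 genotype, and the labels do not describe the knockout allele. A further DEN library, DENHET_136, is labelled TRIM21+/- and was left out of every test. PBS control livers of the same genotypes (3 PBSKO and 3 PBSWT libraries) served to show levels without injury. Values run throughout in the order DENKO_141, DENKO_309 for knockout and DENWT_307, DENWT_995, DENWT_996 for wild type, as CPM, counts scaled to library size. Whether every title number stands for its own animal is not stated, so the tests below speak only of the spread among these libraries, which may be technical.

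TRIM21 is a cytosolic ubiquitin ligase and antibody receptor whose own gene is induced by interferon, and it has been tied to the control of p62 and of the antioxidant regulator NRF2. DEN is converted to a DNA-alkylating species by cytochrome P450 enzymes, chiefly CYP2E1, which hepatocytes around the central vein make most. The injury kills pericentral hepatocytes, activates p53, and is followed by an inflammatory response and by compensatory proliferation of surviving hepatocytes. The title of the series names antioxidant capacity and compensatory proliferation, so genes of both are described with the metabolic, stress and immune genes.

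Gene counts totalled 18617881 to 23059252 in the 5 libraries. Trim21 had 3 and 3 counts in the knockout and 166, 113 and 225 counts in the wild-type libraries, so the knockout libraries held 1.82% of the wild-type level (exact 95% counting interval 0.665% to 3.99%). The log2 difference was −5.68 ± 0.35 (SE; adjusted p = 2.33e-06). DENHET_136 had 7 Trim21 counts, 4.26% of the wild-type level (1.71% to 8.85%), which goes against its label. In the comparison below it lay on the wild-type side. It was nearer to the wild-type than to the knockout mean for 1493 of the 1621 genes higher in knockout and for 1225 of the 1306 lower ones. The median absolute log2 difference over all tested genes was 0.182 between the 2 knockout libraries, 0.184 to 0.247 between wild-type libraries and 0.262 to 0.453 between a knockout and a wild-type library. DENKO_141 lay farther from the wild-type mean than DENKO_309 in 1179 of the 1621 and in 953 of the 1306 genes. Genes that define hepatocytes, albumin among them, were measured in both groups, and none of 8 was called (0 higher and 1 lower in DESeq2, 0 and 0 in limma-voom, and 0 and 2 at an unadjusted p under 0.05 in edgeR). Alb was at 58208 and 58371 CPM in the knockout and 81048, 61355 and 60755 CPM in the wild-type libraries.

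The comparison asked how loss of TRIM21 changes the injured liver. Of 13255 tested genes, 2927 (22.1%) differed in edgeR's quasi-likelihood test at an adjusted p under 0.05, of which 1621 (12.2%) were higher and 1306 (9.85%) lower in knockout. At least 2-fold differences made up 762 of the former and 395 of the latter. Over all tested genes the median log2 difference was 0.01, against which the medians of gene lists below can be read. In 3792 genes (28.6%) both knockout libraries lay above all wild-type libraries and in 3709 (28%) below them. The groups did not overlap in 1617 of the 1621 genes called higher and in 1303 of the 1306 called lower. A lack of overlap in a called gene below therefore adds little to its call. Leaving out 1 library moved the numbers of called genes widely. Without DENKO_141, 206 genes were higher and 50 lower, without DENKO_309 1088 and 654, and without DENWT_996 770 and 530. Where 1 knockout library remained, it was assumed to vary like the other groups. Without DENWT_307 or DENWT_995 the counts were 1491 and 1056, and 1516 and 1366. Called in the same direction whichever of the 5 libraries was left out were 189 higher and 45 lower genes.

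**Figure D1:**
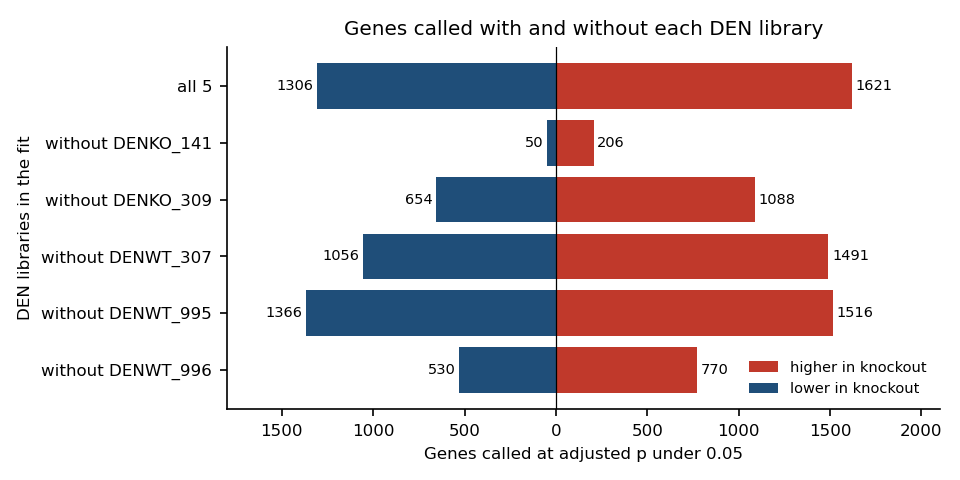
Number of genes called higher (right, red) and lower (left, blue) in DEN knockout than in DEN wild type with all 5 DEN libraries and with each left out in turn. The bars shrink from 1621 and 1306 to 206 and 50 without DENKO_141.

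The largest rises were genes of the differentiated hepatocyte. Cyp1a2, a P450 of the central zone that metabolises caffeine and aromatic amines, was at 863 and 228 CPM in the knockout and 12.3, 11.2 and 7.69 CPM in the wild-type libraries, a log2 difference of 5.73 ± 0.47 (SE; adjusted p = 0.000191). Both knockout libraries stood far above all wild-type libraries, with DENKO_141 the higher of the pair, and PBS livers were higher still at 1623 ± 186 CPM in PBS knockout and 1685 ± 94.9 CPM in PBS wild type (SD, n = 3 each). Rgn, a gluconolactonase of ascorbate synthesis, was at 743 and 411 CPM in the knockout and 30.6, 38.7 and 36.1 CPM in the wild-type libraries (4.05 ± 0.24, adjusted p = 2.33e-06). Slco1a1, an organic anion uptake transporter, was at 289 and 369 CPM in the knockout and 20.8, 16.4 and 3.71 CPM in the wild-type libraries (4.604 ± 0.56, adjusted p = 0.00171), and here DENKO_309 was the higher knockout library. Hsd3b5, a steroid dehydrogenase of male liver, was at 33.5 and 34.3 CPM in the knockout and 1.17, 0.732 and 0.544 CPM in the wild-type libraries (5.39 ± 0.57, adjusted p = 0.000903). For Serpina6, which encodes corticosteroid-binding globulin, the levels were 95.5 and 22.7 CPM in the knockout and 2.26, 4.03 and 2.55 CPM in the wild-type libraries (4.35 ± 0.55, adjusted p = 0.00201). No gene of the 5 overlapped between the groups, as the choice of genes required. The other largest rises were the P450 genes Cyp2c55 and Cyp2c37, the steroid dehydrogenase gene Akr1c6, Slc22a28 of the organic anion transporter family and Fam55b, at log2 differences of 3.83 to 4.42. All 10 kept the call whichever DEN library was left out.

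The largest falls included 3 acute phase genes. Saa2, which encodes a serum amyloid A of the acute phase, was at 12.2 and 46.8 CPM in the knockout and 593, 532 and 668 CPM in the wild-type libraries (−4.34 ± 1.16, adjusted p = 0.0334). Its neighbour Saa1 was at 48.3 and 151 CPM in the knockout and 846, 821 and 977 CPM in the wild-type libraries (−3.14 ± 0.93, adjusted p = 0.045). The groups were far apart in both genes, but the knockout libraries also differed from each other by more than 3-fold. Orm3, an orosomucoid gene, was at 2.63 and 4.68 CPM in the knockout and 32.5, 22.3 and 61.7 CPM in the wild-type libraries (−3.41 ± 0.79, adjusted p = 0.019). Cidec, which enlarges lipid droplets, was at 11.1 and 31.5 CPM in the knockout and 143, 131 and 192 CPM in the wild-type libraries (−2.87 ± 0.42, adjusted p = 0.00323). Bmper, a secreted modulator of BMP signalling, was at 0.965 and 1.63 CPM in the knockout and 7.57, 12.04 and 15.9 CPM in the wild-type libraries (−3.19 ± 0.40, adjusted p = 0.000657). Igdcc4, an immunoglobulin superfamily gene, was at 0.0386 and 0.387 CPM in the knockout and 6.77, 5.77 and 7.75 CPM in the wild-type libraries (−5.00 ± 0.57, adjusted p = 0.000367). Gm15441 is transcribed antisense to Txnip, the inhibitor of thioredoxin, and without a stated strand setting reads of the pair cannot be told apart. Its log2 difference was −3.16 ± 0.58 (SE; adjusted p = 0.00636) and that of Txnip −1.06 ± 0.33 (SE; adjusted p = 0.0434). Gzmm, a granzyme of lymphocytes, and Gml, a GPI-anchored protein gene, completed the set at −2.75 and −2.67. Without DENKO_141 the adjusted p became 0.205 for Saa2, 0.252 for Saa1, 0.171 for Orm3, 0.298 for Txnip and 0.0948 for Gml. It was 0.0712 for Saa2, 0.0771 for Saa1 and 0.0716 for Orm3 without DENKO_309, 0.0585 for Saa2 and 0.0765 for Saa1 without DENWT_307, 0.0528 for Saa2, 0.0705 for Saa1 and 0.0766 for Txnip without DENWT_995 and 0.0834 for Saa2, 0.11 for Saa1, 0.0509 for Orm3 and 0.143 for Txnip without DENWT_996.

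**Figure D2:**
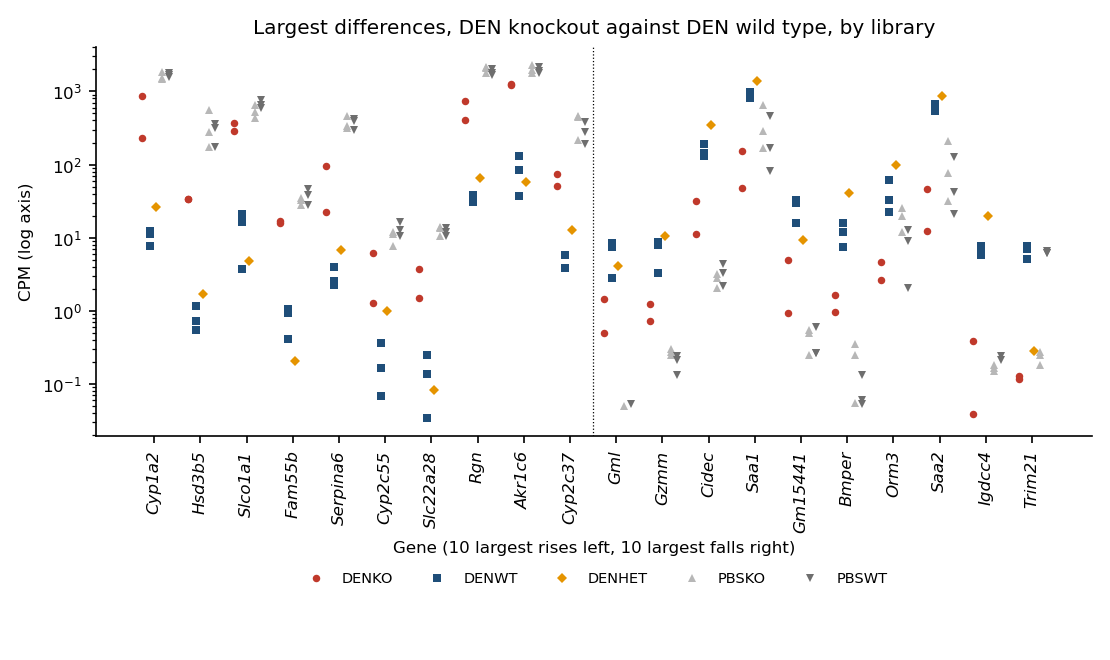
CPM (log axis) in each library of the 10 genes with the largest rises and the 10 with the largest falls in DEN knockout against DEN wild type, with DENHET_136 and the PBS libraries beside them. Points are libraries and values of 0 are not drawn. The red DENKO points lie apart from the blue DENWT points in every gene, as the choice of genes required, and in Cyp1a2 the gap spans from 228 to 12.3 CPM.

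Pericentral hepatocyte genes were the metabolic list with the highest share of rises. Here 20 of 35 tested members rose, none fell and 15 missed the threshold, and the median log2 difference was 1.33. The counts were 24 higher and 0 lower in DESeq2, 23 and 0 in limma-voom, and 26 and 0 at an unadjusted p under 0.05 in edgeR, and the rises in edgeR numbered 9 without DENKO_141. Together the list summed to 8866 to 11440.0 CPM in the knockout and 2564 to 5302 CPM in the wild-type libraries. In bulk tissue, fewer cells of a type and less RNA per cell cannot be told apart. Gulo, the last enzyme of ascorbate synthesis, was at 329 and 296 CPM in the knockout and 47.4, 71.1 and 55.3 CPM in the wild-type libraries (2.44 ± 0.19, adjusted p = 2.83e-05). Cyp27a1, a sterol hydroxylase of bile acid synthesis, was at 476 and 451 CPM in the knockout and 90.1, 148 and 66.6 CPM in the wild-type libraries (2.20 ± 0.27, adjusted p = 0.000596), with no overlap between the groups.

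Some members of the pericentral list act in Wnt signalling, which sets that zone. They are given 1 by 1, since no list of Wnt genes was counted. Tbx3, a transcription factor under Wnt control, was at 18.997 and 21.4 CPM in the knockout and 6.31, 10.1 and 7.89 CPM in the wild-type libraries (1.33 ± 0.24, adjusted p = 0.00426). Notum, a secreted Wnt inhibitor, was at 26.3 and 21.6 CPM in the knockout and 2.30, 5.63 and 2.31 CPM in the wild-type libraries (2.84 ± 0.30, adjusted p = 0.000586). Axin2, a scaffold of beta-catenin destruction, was at 8.88 and 8.68 CPM in the knockout and 2.97, 5.86 and 3.88 CPM in the wild-type libraries (1.06 ± 0.24, adjusted p = 0.00906). Both knockout libraries were above all wild-type libraries in each of these. The Wnt receptor ligases Znrf3 and Rnf43 differed by 0.85 ± 0.18 (SE; adjusted p = 0.00708) and 0.84 ± 0.22 (SE; adjusted p = 0.0191), and the stem cell receptor Lgr5, at 1.43 and 0.902 CPM in the knockout and 0.167, 0.0458 and 0.204 CPM in the wild-type libraries, by 2.97 ± 0.59 (SE; adjusted p = 0.00586). Other members of the list did not pass. Nkd1, a feedback inhibitor of the pathway, was at 3.01 and 3.44 CPM in the knockout and 2.88, 3.89 and 3.03 CPM in the wild-type libraries (−0.01 ± 0.24, adjusted p = 0.98). Glul, the glutamine synthetase of the innermost layer of hepatocytes, was at 44.6 and 71.2 CPM in the knockout and 49.9, 70.0 and 58.2 CPM in the wild-type libraries (−0.03 ± 0.22, adjusted p = 0.935). Slc1a2, a glutamate transporter of the same cells, was at 1.39 and 1.37 CPM in the knockout and 0.669, 1.46 and 1.496 CPM in the wild-type libraries (0.19 ± 0.33, adjusted p = 0.719). Cyp2e1, the enzyme that activates DEN, was at 2100.1 and 2314 CPM in the knockout and 349, 1796 and 407 CPM in the wild-type libraries (1.38 ± 0.58, adjusted p = 0.112), where DENWT_995 stood close to the knockout libraries and the other wild-type libraries well below. Cyp2e1 passed with limma-voom alone among the other tools (adjusted p = 0.0326). Notum, Axin2, Znrf3, Rnf43, Lgr5, Nkd1 and Slc1a2 were chosen after their values were seen. Leaving out DENKO_141 moved the adjusted p to 0.0919 for Axin2, 0.0805 for Znrf3, 0.184 for Rnf43 and 0.0864 for Lgr5. It was 0.0553 for Rnf43 without DENWT_307 and 0.0834 for Rnf43 without DENWT_996.

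Drug-metabolising enzymes were higher over a wide front. In P450 families 1 to 3, 17 of 44 tested genes rose, 3 fell and 24 missed the threshold, and the median log2 difference was 1.23, and the number of rises was 8 without DENKO_141. Most of the rises were in the Cyp2c and Cyp3a families. Some of their members are near-identical in sequence, so counts can be split or shared among those. The same holds for the Saa and Orm genes above and for the glutathione and glucuronosyl transferases and MHC chains below. Cyp2c44 was at 291 and 162 CPM in the knockout and 78.5, 57.7 and 46.9 CPM in the wild-type libraries (1.90 ± 0.26, adjusted p = 0.00102). Cyp3a11, the main drug-metabolising Cyp3a gene of mouse liver and named after its values were seen, was at 2667 and 2100.5 CPM in the knockout and 173, 759 and 146 CPM in the wild-type libraries (2.74 ± 0.59, adjusted p = 0.0122). DENWT_995 was the highest wild-type library of Cyp3a11, as it was of Cyp2e1. The 3 genes that fell, Cyp2d9, Cyp2u1 and Cyp2a12, differed by −0.83 ± 0.22 (SE; adjusted p = 0.02), −0.85 ± 0.27 (SE; adjusted p = 0.0425) and −0.56 ± 0.19 (SE; adjusted p = 0.0449). Outside these families, Cyp4f14 and Cyp4f15, which inactivate eicosanoids, rose by 2.03 ± 0.24 (SE; adjusted p = 0.000586) and 1.25 ± 0.20 (SE; adjusted p = 0.00248). They were the only rises among 14 tested Cyp4 genes (14.3%), of which 3 fell (21.4%), and the median log2 difference was −0.42. The number of falls changed with the library left out. Summed over that list, the level was lower in knockout, at 2793 to 3178 CPM against 6630 to 8115 CPM in the wild-type libraries. The adjusted p was 0.104 for Cyp3a11, 0.22 for Cyp2d9, 0.158 for Cyp2u1 and 0.175 for Cyp2a12 without DENKO_141. It was 0.2 for Cyp2u1 and 0.174 for Cyp2a12 without DENKO_309, 0.0645 for Cyp2u1 and 0.0884 for Cyp2a12 without DENWT_307, 0.0542 for Cyp2d9 and 0.0802 for Cyp2a12 without DENWT_995 and 0.156 for Cyp2u1 and 0.0511 for Cyp2a12 without DENWT_996.

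Conjugating enzymes of phase II showed the same direction, since 27 of 51 tested genes rose, 2 fell and 22 missed the threshold, and the median log2 difference was 0.89. The number of rises was 4 without DENKO_141 and 15 without DENWT_996. Inmt, a methyltransferase of indoles, was at 225 and 86.3 CPM in the knockout and 15.2, 7.09 and 15.6 CPM in the wild-type libraries (3.63 ± 0.42, adjusted p = 0.000903). Ugt2b1, a glucuronosyl transferase, was at 607 and 348 CPM in the knockout and 97.9, 85.4 and 43.7 CPM in the wild-type libraries (2.67 ± 0.32, adjusted p = 0.000586). The alpha-class glutathione transferase gene Gsta3 was at 1822 and 1601 CPM in the knockout and 587, 396 and 296 CPM in the wild-type libraries (2.01 ± 0.28, adjusted p = 0.00101), with no overlap between the groups. These 3 kept the call without any of the 5 libraries.

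Antioxidant genes under NRF2 were not uniform. Of the listed targets, 14 of 43 tested members rose, none fell and 29 missed the threshold, and the median log2 difference was 0.47. The counts were 18 higher and 0 lower in DESeq2, 17 and 0 in limma-voom, and 23 and 1 at an unadjusted p under 0.05 in edgeR, and the rises in edgeR numbered 3 without DENKO_141 and 8 without DENWT_996. Of the 14, 7 were glutathione transferases, which the phase II list also holds. Besides Gsta3 they included Aox1, an aldehyde oxidase, at 111 and 77.9 CPM in the knockout and 40.0, 39.5 and 28.9 CPM in the wild-type libraries (1.40 ± 0.20, adjusted p = 0.00144). Gclm, the modifier subunit of the first enzyme of glutathione synthesis, was at 142 and 119 CPM in the knockout and 81.6, 71.9 and 57.3 CPM in the wild-type libraries (0.91 ± 0.16, adjusted p = 0.00342). Both knockout libraries were above all wild-type libraries in each, and DENHET_136 had the lowest DEN level of both at 25.1 and 42.6 CPM. Gsta4 and Gstm1, chosen after their values were seen, rose by 2.26 ± 0.36 (SE; adjusted p = 0.00361) and 1.76 ± 0.38 (SE; adjusted p = 0.00927). Slc7a11, the cystine transporter that supplies glutathione synthesis, was at 2.78 and 4.38 CPM in the knockout and 1.25, 1.88 and 0.612 CPM in the wild-type libraries (1.54 ± 0.48, adjusted p = 0.0372). When DENKO_141 was left out, the adjusted p was 0.0636 for Gclm, 0.144 for Gstm1 and 0.114 for Slc7a11. It was 0.23 for Slc7a11 without DENKO_309, 0.0742 for Slc7a11 without DENWT_307 and 0.134 for Slc7a11 without DENWT_996.

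Further genes of the NRF2 response, several of them not called, are given next. Nqo1, the quinone reductase often read as a marker of that response, was at 30.4 and 21.1 CPM in the knockout and 14.8, 18.9 and 13.9 CPM in the wild-type libraries. It just missed the threshold (0.71 ± 0.25, adjusted p = 0.0567). Both knockout libraries lay above all wild-type libraries, as in 28.6% of all tested genes. Nqo1 passed with DESeq2 (adjusted p = 0.0481), limma-voom (0.0365) and edgeR on the 5 DEN libraries alone (0.0393). Srxn1, which repairs peroxiredoxins, was at 238 and 197 CPM in the knockout and 261, 308 and 269 CPM in the wild-type libraries and did not pass (−0.35 ± 0.15, adjusted p = 0.109). It was lower in both knockout libraries, as were 28% of all tested genes. Hmox1, heme oxygenase 1, was at 64.7 and 86.0 CPM in the knockout and 80.2, 71.4 and 63.4 CPM in the wild-type libraries. Txnrd1, thioredoxin reductase 1, was at 298 and 249 CPM in the knockout and 265, 284 and 269.5 CPM in the wild-type libraries. Both overlapped between the groups. Their log2 differences were 0.08 ± 0.22 (SE; adjusted p = 0.83) and 0.01 ± 0.14 (SE; adjusted p = 0.967). Gclc, the catalytic partner of Gclm, did not pass either (0.02 ± 0.22, adjusted p = 0.947). Nfe2l2, which encodes NRF2, was at 149.5 and 139 CPM in the knockout and 102, 89.6 and 115 CPM in the wild-type libraries (0.50 ± 0.17, adjusted p = 0.0445), and its call was lost without any 1 of the 5 libraries, with limma-voom (adjusted p = 0.051) and on the 5 DEN libraries alone (0.0552). The inhibitor gene Keap1 and the p62 gene Sqstm1 had log2 differences of 0.01 ± 0.14 (SE; adjusted p = 0.954) and −0.05 ± 0.17 (SE; adjusted p = 0.866). Mafk, which pairs with NRF2 on DNA, fell from 75.4, 56.7 and 75.2 to 29.7 and 36.5 CPM (−1.06 ± 0.23, adjusted p = 0.00849). Of 24 tested peroxide and thiol enzymes 6 rose (25%) and 2 fell (8.33%). Among them Prdx6, a peroxiredoxin, and Cat, catalase, rose by 0.84 ± 0.20 (SE; adjusted p = 0.0121) and 0.74 ± 0.22 (SE; adjusted p = 0.0281). The falls were Txnip, at −1.06, and Gpx3, the secreted glutathione peroxidase, at −0.81 ± 0.27 (SE; adjusted p = 0.048). The rises of these enzymes numbered 0 without DENKO_141 (edgeR, 5 at an unadjusted p under 0.05) and 1 without DENWT_996, and the falls 0 without DENKO_141 (edgeR, 0 at an unadjusted p under 0.05), 1 without DENWT_307, 0 without DENWT_995 (edgeR, 3 at an unadjusted p under 0.05) and 0 without DENWT_996 (edgeR, 5 at an unadjusted p under 0.05). Without DENKO_141 the adjusted p became 0.247 for Nfe2l2, 0.119 for Mafk, 0.144 for Prdx6, 0.284 for Cat, 0.362 for Gpx3 and 0.298 for Txnip. It was 0.0959 for Nfe2l2 without DENKO_309, 0.0867 for Nfe2l2 and 0.0975 for Gpx3 without DENWT_307, 0.114 for Nfe2l2, 0.0673 for Gpx3 and 0.0766 for Txnip without DENWT_995 and 0.0507 for Nfe2l2, 0.076 for Cat, 0.115 for Gpx3 and 0.143 for Txnip without DENWT_996.

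**Figure D3:**
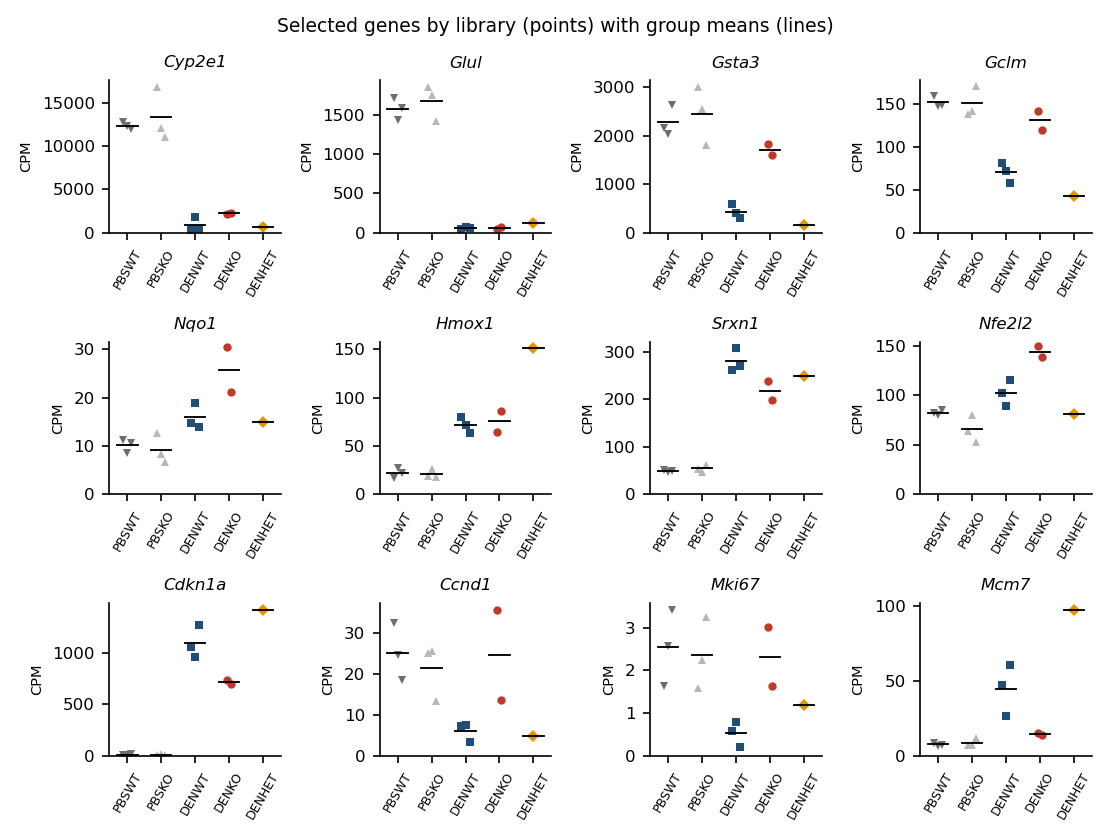
CPM in each library (points) with group means (lines) for 12 genes of DEN activation, the NRF2 response, p53 and the cell cycle, each panel with its own linear axis from 0. Gsta3 and Gclm are higher in both DENKO libraries than in all DENWT libraries, while Glul, Hmox1 and Srxn1 show no rise in DENKO.

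Promoters of NRF2 targets were searched for the letters of the antioxidant response element, TGACNNNGC, on both strands, in the RefSeq window from 250 bases before to 50 after the gene start (build GRCm38.p6). Of 13255 tested genes 9460 matched a promoter by symbol, and 17.2% of these held the letters in at least 1 promoter. They were present in 4 of 13 targets that rose (30.8%) and in 9 of 24 that were not called (37.5%). The letters can overlap those of AP-1 sites. Sites of 2 targets described above, picked after their values were seen, are shown with 20 bases on each side, 5′ to 3′ on the strand of the gene, with the matching letters in capitals. That of Gclm is at chr3:122245403-122245451 (+ strand) and holds the reverse complement of the letters, and that of Gsta3 is at chr1:21240444-21240492 (+ strand).
Gclm: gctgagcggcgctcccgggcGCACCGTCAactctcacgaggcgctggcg
Gsta3: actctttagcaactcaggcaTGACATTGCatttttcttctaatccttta
The match is a description of letters and not a test of binding.

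Lipid, sterol and secretory functions of the hepatocyte moved in opposite directions by pathway. For cholesterol synthesis and uptake, 12 of 26 tested genes rose, none fell and 14 missed the threshold, and the median log2 difference was 0.95 (16 higher and 0 lower in DESeq2, 14 and 0 in limma-voom, and 18 and 0 at an unadjusted p under 0.05 in edgeR). The number of rises was 1 without DENKO_141, 5 without DENWT_995 and 4 without DENWT_996. Tm7sf2, a sterol reductase, was at 99.5 and 75.1 CPM in the knockout and 34.1, 33.9 and 23.6 CPM in the wild-type libraries (1.53 ± 0.19, adjusted p = 0.000586), while Insig1, a sterol-sensing brake on the pathway, rose by 1.92 ± 0.36 (SE; adjusted p = 0.00682) and Mvd, mevalonate decarboxylase, by 1.83 ± 0.37 (SE; adjusted p = 0.00914). Genes of bile acid synthesis and transport rose in 13 of 27 and fell in none (15 higher and 0 lower in DESeq2, 14 and 0 in limma-voom, and 17 and 0 at an unadjusted p under 0.05 in edgeR), and the rises numbered 2 without DENKO_141, 5 without DENKO_309, 8 without DENWT_307 and 6 without DENWT_996. Mlxipl, the carbohydrate-responsive factor ChREBP, was at 211 and 173 CPM in the knockout and 56.5, 55.1 and 42.8 CPM in the wild-type libraries (1.91 ± 0.19, adjusted p = 0.000191). Otc, a urea cycle enzyme, was at 369.7 and 257 CPM in the knockout and 38.1, 83.7 and 30.0 CPM in the wild-type libraries (2.64 ± 0.35, adjusted p = 0.00142). Leaving out DENKO_141 moved the adjusted p to 0.0913 for Insig1 and 0.113 for Mvd.

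Fatty acid oxidation genes and targets of PPAR-alpha went the other way, and none of 40 tested genes rose, 10 fell and 30 missed the threshold, and the median log2 difference was −0.44. The counts were 0 higher and 15 lower in DESeq2, 0 and 12 in limma-voom, and 1 and 17 at an unadjusted p under 0.05 in edgeR, and the number of falls was 1 without DENKO_141. Ehhadh, of peroxisomal beta-oxidation, was at 439.5 and 492 CPM in the knockout and 945, 774 and 996.4 CPM in the wild-type libraries (−0.95 ± 0.18, adjusted p = 0.00447). Acot2, a mitochondrial acyl-CoA thioesterase, was at 13.3 and 25.6 CPM in the knockout and 86.1, 50.6 and 115 CPM in the wild-type libraries (−2.11 ± 0.37, adjusted p = 0.00487). Apolipoproteins and secreted hepatocyte proteins rose in 3 of 31 and fell in 3, each 9.68% and no more than over all genes. Lipc, the hepatic lipase, was at 90.8 and 67.5 CPM in the knockout and 15.5, 14.6 and 8.06 CPM in the wild-type libraries (2.65 ± 0.30, adjusted p = 0.000666), a rise, while the apolipoproteins below fell. Apoa4, an apolipoprotein raised in fatty liver, was at 667 and 1037 CPM in the knockout and 3862, 3582 and 2641 CPM in the wild-type libraries (−1.97 ± 0.30, adjusted p = 0.00171). Apoc2, the activator of lipoprotein lipase, was at 283 and 561 CPM in the knockout and 1549, 1109.6 and 1064 CPM in the wild-type libraries (−1.55 ± 0.26, adjusted p = 0.00307). Hsd17b13, a lipid droplet enzyme, was at 222 and 259 CPM in the knockout and 964, 663 and 888 CPM in the wild-type libraries (−1.79 ± 0.19, adjusted p = 0.000231). Hsd17b13 is from the periportal list, in which 2 of 29 rose (6.9%, against 12.2% over all genes) and 3 fell (10.3%, against 9.85%). In fatty acid synthesis 6 of 24 rose and 2 fell, and the rises numbered 1 without DENKO_141 and 3 without DENWT_996. With all 5 libraries the rises were 25% and the falls 8.33% of the synthesis list, against 12.2% and 9.85% over all genes. Acaca, acetyl-CoA carboxylase, was at 24.4 and 14.0 CPM in the knockout and 9.74, 8.74 and 7.41 CPM in the wild-type libraries (1.16 ± 0.23, adjusted p = 0.00623). The adjusted p was 0.0735 for Ehhadh, 0.0626 for Acot2 and 0.125 for Acaca without DENKO_141.

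Complement and clotting factors rose in 20 of 46 tested members with a median log2 difference of 0.58, and the number of rises was 4 without DENKO_141, 11 without DENKO_309 and 12 without DENWT_996. C9, of the membrane attack complex, was at 549.6 and 496 CPM in the knockout and 96.9, 134 and 57.1 CPM in the wild-type libraries (2.45 ± 0.26, adjusted p = 0.000242). C6, of the same complex, was at 139.7 and 169.8 CPM in the knockout and 72.6, 65.4 and 49.5 CPM in the wild-type libraries (1.31 ± 0.20, adjusted p = 0.00166).

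Of 33 tested acute phase proteins 4 were higher, 12.1% against 12.2% over all genes, and 7 lower, 21.2% against 9.85%, and the median log2 difference was −0.06. Serpina10, an inhibitor of clotting factors, was at 303 and 305 CPM in the knockout and 178, 124 and 84.7 CPM in the wild-type libraries (1.25 ± 0.22, adjusted p = 0.00351). Cd14, the endotoxin coreceptor, was at 7.41 and 11.04 CPM in the knockout and 33.8, 28.6 and 44.8 CPM in the wild-type libraries (−1.95 ± 0.26, adjusted p = 0.000783). Lcn2, lipocalin 2, was at 60.9 and 185 CPM in the knockout and 461, 551 and 587 CPM in the wild-type libraries (−2.12 ± 0.53, adjusted p = 0.0229). DENHET_136 exceeded every other DEN library in both, at 111 and 2632 CPM. Male-biased liver genes rose in 13 of 31 and fell in 3, with a median log2 difference of 0.87. Female-biased liver genes rose in 3 of 19 (15.8%) and fell in 1, with a median of 1.24, so a positive median was not particular to male-biased genes. The female-biased list summed to 1512 to 1910 CPM in the knockout and 5130 to 6180 CPM in the wild-type libraries. Since 13 of its 19 tested members had a positive log2 difference, this lower sum does not give the direction of most members. Chaperones of the endoplasmic reticulum rose in 13 of 32 and fell in 1. Among the chaperones Hyou1, a large HSP70 relative, rose by 0.95 ± 0.20 (SE; adjusted p = 0.00723) and Sdf2l1 by 1.62 ± 0.28 (SE; adjusted p = 0.00391). When DENKO_141 was left out, the adjusted p was 0.134 for Lcn2, 0.0851 for Hyou1 and 0.052 for Sdf2l1. It was 0.077 for Lcn2 without DENWT_996. The rises among the chaperones numbered 1 without DENKO_141, 7 without DENKO_309 and 8 without DENWT_996, and those among male-biased genes 8 without DENKO_141. Among the acute phase genes the rises numbered 2 without DENKO_309 and 2 without DENWT_996 and the falls 1 without DENKO_141, 3 without DENWT_307 and 1 without DENWT_996.

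**Figure D4:**
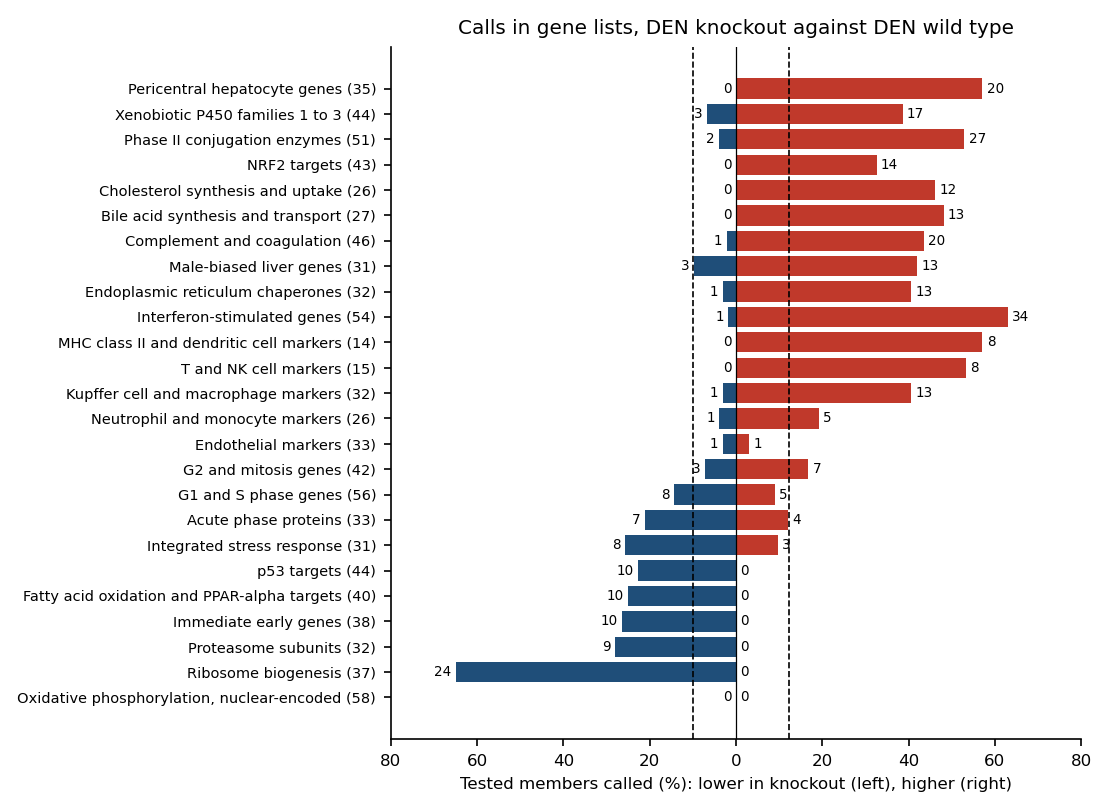
Share of tested members (number in parentheses) called higher (right, red) or lower (left, blue) in DEN knockout for 25 gene lists, with the number called at each bar end. Dashed lines mark the shares over all tested genes, 12.2% higher and 9.85% lower. Interferon-stimulated genes extend farthest to the right and ribosome biogenesis farthest to the left.

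Stress signalling genes were partly lower in knockout. Among p53 targets, none of 44 tested members rose, 10 fell and 34 missed the threshold, and the median log2 difference was −0.35. The counts were 0 higher and 15 lower in DESeq2, 2 and 13 in limma-voom, and 4 and 19 at an unadjusted p under 0.05 in edgeR, and the number of falls was 0 without DENKO_141 (edgeR, 9 at an unadjusted p under 0.05), 3 without DENKO_309 and 4 without DENWT_996. Tnfrsf10b, the death receptor of TRAIL, was at 17.7 and 20.7 CPM in the knockout and 39.9, 30.2 and 51.5 CPM in the wild-type libraries (−1.07 ± 0.22, adjusted p = 0.00616). Cgref1, a p53-responsive growth regulator, was at 7.64 and 11.6 CPM in the knockout and 20.2, 22.0 and 26.5 CPM in the wild-type libraries (−1.25 ± 0.22, adjusted p = 0.00321). Rprm, an inhibitor of the G2 transition, was at 1.39 and 1.76 CPM in the knockout and 4.14, 5.95 and 7.14 CPM in the wild-type libraries (−1.86 ± 0.34, adjusted p = 0.00702). All 3 were lower in both knockout libraries than in any wild-type library. Better known targets did not pass. Cdkn1a, the p21 inhibitor of cyclin-dependent kinases, was at 734 and 693 CPM in the knockout and 1058, 961 and 1276 CPM in the wild-type libraries (−0.62 ± 0.53, adjusted p = 0.435). It was lower in both knockout libraries, as were 28% of all tested genes. The PBS libraries share its estimate of spread, and in PBS wild type Cdkn1a was at 3.49, 3.78 and 14.7 CPM. Their part in its standard error was not tested. Mdm2, the ubiquitin ligase of p53, was at 197 and 227 CPM in the knockout and 259.8, 242 and 264 CPM in the wild-type libraries (−0.26 ± 0.13, adjusted p = 0.154). Phlda3, a repressor of AKT, was at 124 and 128 CPM in the knockout and 157, 152 and 194 CPM in the wild-type libraries (−0.41 ± 0.18, adjusted p = 0.117). Without DENKO_141 the adjusted p became 0.0973 for Tnfrsf10b, 0.0688 for Cgref1 and 0.097 for Rprm.

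Immediate early genes, which stimuli switch on within minutes, also fell in part. Here none of 38 tested genes rose, 10 fell and 28 missed the threshold, and the median log2 difference was −1.05. The counts were 0 higher and 16 lower in DESeq2, 0 and 17 in limma-voom, and 0 and 21 at an unadjusted p under 0.05 in edgeR, and the number of falls was 0 without DENKO_141 (edgeR, 6 at an unadjusted p under 0.05), 5 without DENKO_309, 5 without DENWT_307 and 3 without DENWT_996. Klf6, a zinc finger factor of liver injury, was at 34.0 and 56.3 CPM in the knockout and 113, 93.9 and 124 CPM in the wild-type libraries (−1.28 ± 0.25, adjusted p = 0.0053). In the integrated stress response 8 of 31 genes fell (25.8%) and 3 rose (9.68%, against 12.2% over all genes). The falls numbered 1 without DENKO_141 and 4 without DENWT_996, and the rises 0 without DENKO_141 (edgeR, 2 at an unadjusted p under 0.05), 1 without DENWT_307 and 1 without DENWT_996. Slc3a2, the heavy chain of amino acid transporters, was at 84.6 and 96.8 CPM in the knockout and 159.8, 194 and 212 CPM in the wild-type libraries (−1.05 ± 0.16, adjusted p = 0.00201). Ppp1r15a, which returns eIF2-alpha to its active form, was at 19.1 and 25.3 CPM in the knockout and 67.7, 38.6 and 65.9 CPM in the wild-type libraries (−1.37 ± 0.24, adjusted p = 0.00342). Tnfrsf12a, the receptor of the injury cytokine TWEAK, was at 52.1 and 96.6 CPM in the knockout and 205, 206 and 230.3 CPM in the wild-type libraries (−1.52 ± 0.22, adjusted p = 0.0014). Proteasome subunits fell in 9 of 32, with small log2 differences around a median of −0.33, and rose in none (0 higher and 10 lower in DESeq2, 0 and 10 in limma-voom, and 0 and 16 at an unadjusted p under 0.05 in edgeR). The falls were 0 without DENKO_141 (edgeR, 8 at an unadjusted p under 0.05), 2 without DENKO_309 and 4 without DENWT_996. Leaving out DENKO_141 moved the adjusted p to 0.0828 for Klf6 and 0.0688 for Ppp1r15a.

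Growth-related genes did not move as 1 block. Ribosome biogenesis genes, which accompany cell growth, were the list with the most falls, and none of 37 tested genes rose, 24 fell and 13 missed the threshold, and the median log2 difference was −0.70. The counts were 0 higher and 25 lower in DESeq2, 0 and 24 in limma-voom, and 0 and 31 at an unadjusted p under 0.05 in edgeR, and the number of falls was 2 without DENKO_141, 12 without DENKO_309 and 15 without DENWT_996. Ddx21, a nucleolar helicase, was at 50.2 and 49.9 CPM in the knockout and 111, 85.2 and 159 CPM in the wild-type libraries (−1.23 ± 0.21, adjusted p = 0.00287). Gar1, a protein of small nucleolar particles, was at 7.95 and 9.75 CPM in the knockout and 21.2, 17.3 and 23.3 CPM in the wild-type libraries (−1.21 ± 0.19, adjusted p = 0.00205), with no overlap in either. The list summed to 1278 to 1296 CPM in the knockout, 1707 to 2466 CPM in the wild-type and 1156 to 1327 CPM in the PBS libraries. Myc, a driver of this programme, was at 17.7 and 21.5 CPM in the knockout and 36.7, 25.9 and 35.8 CPM in the wild-type libraries and did not pass (−0.74 ± 0.95, adjusted p = 0.619), except on the 5 DEN libraries alone (edgeR, adjusted p = 0.0283). In the main fit, which shares its spread with the PBS libraries, PBSWT_541 had 951 Myc counts, against 87 in PBSWT_542 and 90 in PBSWT_545.

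Cell cycle genes differed in both directions. Of the G1 and S list 5 of 56 rose and 8 fell, and of the G2 and mitosis list 7 of 42 rose and 3 fell, so that neither list was far from the shares over all genes. Ccnd1, cyclin D1, was at 35.8 and 13.6 CPM in the knockout and 7.23, 7.51 and 3.33 CPM in the wild-type libraries (2.06 ± 0.49, adjusted p = 0.0179). Mki67, which encodes the proliferation antigen Ki-67, was at 3.01 and 1.63 CPM in the knockout and 0.585, 0.778 and 0.204 CPM in the wild-type libraries (2.20 ± 0.50, adjusted p = 0.00927). In both, DENKO_141 was above the PBS means, with DENKO_309 and then all wild-type libraries below them. Tk1, thymidine kinase, was at 21.6 and 15.04 CPM in the knockout and 4.47, 4.90 and 1.73 CPM in the wild-type libraries (2.34 ± 0.42, adjusted p = 0.00587). Aurkb, a mitotic kinase, was at 1.08 and 0.773 CPM in the knockout and 0.125, 0.183 and 0.170 CPM in the wild-type libraries (2.51 ± 0.47, adjusted p = 0.00446). Most of the 8 falls in the G1 and S list were in genes of DNA replication. Mcm7, of the replicative helicase, was at 15.1 and 13.9 CPM in the knockout and 47.4, 26.2 and 60.5 CPM in the wild-type libraries (−1.62 ± 0.32, adjusted p = 0.00703). Cdt1, which loads that helicase, was at 6.02 and 4.51 CPM in the knockout and 10.3, 9.93 and 18.2 CPM in the wild-type libraries (−1.27 ± 0.30, adjusted p = 0.0119). Pcna, the sliding clamp, was at 12.5 and 12.8 CPM in the knockout and 17.9, 16.8 and 20.4 CPM in the wild-type libraries (−0.53 ± 0.15, adjusted p = 0.026). Mad2l1, of the spindle checkpoint, and Ccnf, cyclin F, differed by −0.95 ± 0.23 (SE; adjusted p = 0.0132) and −1.09 ± 0.26 (SE; adjusted p = 0.0121). The adjusted p was 0.187 for Ccnd1, 0.141 for Mki67, 0.0756 for Tk1, 0.0753 for Aurkb, 0.0819 for Mcm7, 0.0765 for Cdt1, 0.175 for Pcna, 0.12 for Mad2l1 and 0.142 for Ccnf without DENKO_141. It was 0.0907 for Cdt1, 0.0994 for Pcna and 0.0688 for Mad2l1 without DENKO_309 and 0.0613 for Ccnd1, 0.0924 for Pcna and 0.0502 for Ccnf without DENWT_996. Summed over the lists, G1 and S genes were at 533 to 624 CPM in the knockout and 537 to 616 CPM in the wild-type libraries. G2 and mitosis genes summed to 151 to 155 CPM in the knockout and 187 to 213 CPM in the wild-type libraries, against 126 to 174 CPM in PBS. Mki67 and Aurkb rose, yet the summed level of their list was lower in both knockout libraries. Without DENKO_141 none of either list was called (edgeR), while 4 and 10 G1 and S genes and 4 and 6 G2 and mitosis genes were higher and lower at an unadjusted p under 0.05. Without DENKO_309 the G1 and S list had 8 rises and 2 falls and without DENWT_996 3 and 3, so the balance of that list depended on the library. The G2 and mitosis list had 3 rises without DENWT_307, 6 falls without DENWT_995, and 4 rises and 1 fall without DENWT_996.

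**Figure D5:**
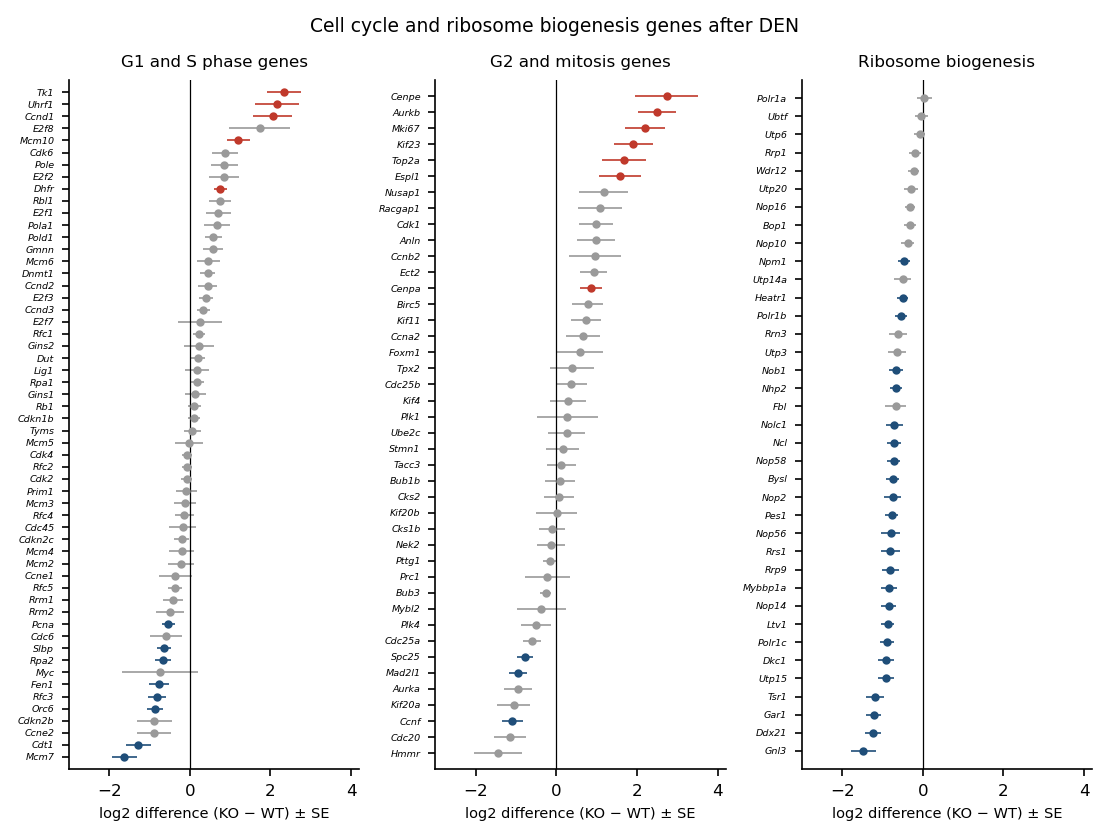
Log2 difference of DEN knockout against DEN wild type (points) with its standard error (bars) for the tested genes of the G1 and S, G2 and mitosis, and ribosome biogenesis lists, coloured red where called higher, blue where called lower and grey otherwise. Cell cycle genes spread to both sides of 0, from Mcm7 at −1.62 to Tk1 at 2.34 in the first panel, while all but 1 of 37 ribosome biogenesis genes lie below 0.

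Interferon-stimulated genes had the highest share of rises of the lists with more than 20 tested members. Trim21 is itself induced by interferon but was not counted in this list. Here 34 of 54 tested genes rose, 1 fell and 19 missed the threshold, and the median log2 difference was 1.04. The rises numbered 5 without DENKO_141 and 21 without DENWT_996. Gbp7, a guanylate-binding protein gene, was at 19.96 and 11.2 CPM in the knockout and 5.02, 4.49 and 3.23 CPM in the wild-type libraries (1.89 ± 0.23, adjusted p = 0.000596). Irf7, the amplifier of interferon induction, was at 67.5 and 49.5 CPM in the knockout and 25.5, 21.1 and 15.7 CPM in the wild-type libraries (1.505 ± 0.21, adjusted p = 0.0013). Bst2, the antiviral tetherin, was at 165 and 129 CPM in the knockout and 64.2, 71.8 and 52.1 CPM in the wild-type libraries (1.24 ± 0.17, adjusted p = 0.00111). Psmb8, an immunoproteasome subunit, was at 34.0 and 27.8 CPM in the knockout and 15.8, 14.6 and 12.5 CPM in the wild-type libraries (1.12 ± 0.14, adjusted p = 0.000705). In all 4 genes the wild-type libraries lay below every PBS library and below both knockout libraries, as for Psmb8 with 48.1 ± 3.87 CPM in PBS knockout and 53.2 ± 4.22 CPM in PBS wild type (SD, n = 3 each). Ikbke, a kinase of interferon induction, rose by 1.27 ± 0.19 (SE; adjusted p = 0.00182). Cxcl9, a chemokine induced by interferon-gamma, rose by 2.88 ± 0.51 (SE; adjusted p = 0.00502). Isg20, an exonuclease, was the single fall, at −1.03 ± 0.24 (SE; adjusted p = 0.0103). When DENKO_141 was left out, the adjusted p was 0.0572 for Cxcl9 and 0.15 for Isg20.

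The interferon response element, whose letters overlap those of single IRF sites, was searched as 2 copies of GAAA with any 2 bases between them, in the same promoter windows and on both strands. Over all tested genes with a promoter 3.76% held it, against 14 of 24 interferon-stimulated genes that rose (58.3%) and 9 of 17 that were not called (52.9%). Both shares of the list were far above the share over all genes. Sites of 3 genes that rose are printed below, 5′ to 3′ on the strand of the gene with the matching letters in capitals. They lie at chr3:142530263-142530312 (Gbp7, + strand), chr8:71537573-71537622 (Bst2, − strand) and chr19:34583353-34583402 (Ifit3, + strand), and those of Gbp7 and Ifit3 hold the reverse complement of the letters. Ifit3, an inhibitor of viral translation named after its values were seen, was at 8.46 and 7.004 CPM in the knockout and 2.68, 3.62 and 1.39 CPM in the wild-type libraries (1.62 ± 0.44, adjusted p = 0.0259).
Gbp7: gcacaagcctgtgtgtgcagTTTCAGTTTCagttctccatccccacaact
Bst2: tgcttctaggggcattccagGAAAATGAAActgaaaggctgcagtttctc
Ifit3: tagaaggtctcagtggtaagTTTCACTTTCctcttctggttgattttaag
Nothing follows from such letters about binding in these livers. Without DENKO_141 the adjusted p became 0.172 for Ifit3. It was 0.0629 for Ifit3 without DENKO_309, 0.0559 for Ifit3 without DENWT_307 and 0.0863 for Ifit3 without DENWT_996.

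Markers of immune cells rose in shares that differed by cell type. MHC class II and dendritic cell markers rose in 8 of 14 and fell in none (8 higher and 0 lower in DESeq2, 8 and 0 in limma-voom, and 8 and 0 at an unadjusted p under 0.05 in edgeR), and the rises numbered 5 without DENKO_141. H2-Aa, an MHC class II chain, was at 31.0 and 20.2 CPM in the knockout and 6.44, 7.46 and 5.61 CPM in the wild-type libraries (1.99 ± 0.26, adjusted p = 0.000929). H2-Ab1, its partner, was at 22.9 and 16.1 CPM in the knockout and 5.98, 6.54 and 5.10 CPM in the wild-type libraries (1.74 ± 0.25, adjusted p = 0.00152). Cd74, the class II invariant chain, and Itgax, the integrin CD11c, both named after their values were seen, rose by 1.75 ± 0.26 (SE; adjusted p = 0.00205) and 2.47 ± 0.38 (SE; adjusted p = 0.00201). The class II and dendritic list summed to 257 to 266 CPM in the knockout, 153 to 198 CPM in the wild-type and 271 to 366 CPM in the PBS libraries. T and NK cell markers rose in 8 of 15 and fell in none (8 higher and 0 lower in DESeq2, 9 and 0 in limma-voom, and 11 and 0 at an unadjusted p under 0.05 in edgeR), and the rises numbered 0 without DENKO_141 (edgeR, 8 at an unadjusted p under 0.05) and 3 without DENWT_996. These were faint, as with Cd8a of cytotoxic T cells at 1.16 and 0.602 CPM in the knockout and 0.125, 0.0915 and 0.170 CPM in the wild-type libraries (2.70 ± 0.57, adjusted p = 0.00698). The list summed to 25 to 30.9 CPM in the knockout, 12.9 to 20.4 CPM in the wild-type and 20.6 to 31.7 CPM in the PBS libraries. Gzmm, the lymphocyte granzyme among the largest falls, was not in this list. Leaving out DENKO_141 moved the adjusted p to 0.125 for Cd8a.

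Kupffer cell and macrophage markers rose in 13 of 32 and fell in 1, and the rises numbered 1 without DENKO_141, 2 without DENKO_309, 7 without DENWT_995 and 4 without DENWT_996. They summed to 894 to 1008 CPM in the knockout, 439 to 689.5 CPM in the wild-type and 526 to 978 CPM in the PBS libraries. Mpeg1, the pore-forming protein of macrophages, was at 119 and 120.3 CPM in the knockout and 56.1, 50.8 and 35.9 CPM in the wild-type libraries (1.34 ± 0.18, adjusted p = 0.00107). Trem2, a lipid receptor of macrophages in injured tissue, was at 3.78 and 6.75 CPM in the knockout and 2.17, 1.37 and 0.578 CPM in the wild-type libraries (1.95 ± 0.46, adjusted p = 0.0113). Il18, a cytokine of the inflammasome, rose by 1.63 ± 0.21 (SE; adjusted p = 0.000657). Tnf, a cytokine of injury and compensatory growth, was at 0.772 and 1.03 CPM in the knockout and 0.293, 0.3204 and 0.0340 CPM in the wild-type libraries (2.11 ± 0.69, adjusted p = 0.0429). DESeq2 gave Tnf an adjusted p of 0.0685. Il1b did not pass at 1.54 and 1.33 CPM in the knockout and 2.22, 1.60 and 0.612 CPM in the wild-type libraries (−0.01 ± 0.59, adjusted p = 0.993). Il6, the cytokine that primes hepatocytes, had 1 and 0 counts in knockout and 1, 1 and 0 in wild type, too few to test. Neutrophil and monocyte markers rose in 5 of 26 and fell in 1, and the rises numbered 0 without DENKO_141 (edgeR, 7 at an unadjusted p under 0.05), 2 without DENKO_309, 8 without DENWT_307 and 3 without DENWT_996. With all 5 libraries 19.2% were called higher and 3.85% lower, against 12.2% and 9.85% over all genes. Of the 26 tested members, 16 had a positive log2 difference, and the median was 0.38. The summed level of the list was lower in knockout, at 189 to 340 CPM against 580 to 693 CPM in the wild-type libraries. Lcn2, also in this list, made up most of the wild-type sum at the levels given above. The sum therefore does not give the direction of the other members. B and plasma cell markers rose in 2 of 10 and fell in none (2 higher and 1 lower in DESeq2, 2 and 1 in limma-voom, and 3 and 1 at an unadjusted p under 0.05 in edgeR), and the rises numbered 0 without DENKO_141 (edgeR, 2 at an unadjusted p under 0.05), 1 without DENKO_309, 1 without DENWT_307 and 0 without DENWT_996 (edgeR, 3 at an unadjusted p under 0.05). With all 5 libraries the rises made up 20%, against 12.2% over all genes. The log2 difference was positive in 9 of the 10, with a median of 0.72. The list summed to 517 to 626 CPM in the knockout and 671 to 736 CPM in the wild-type libraries. This lower sum in knockout therefore does not give the direction of most members. Endothelial markers rose in 1 and fell in 1 of 33, below the shares over all genes. The part of these cell type markers in the interferon and class II results was not tested. The adjusted p was 0.0508 for Trem2 and 0.155 for Tnf without DENKO_141. It was 0.1 for Trem2 and 0.172 for Tnf without DENKO_309, 0.0535 for Tnf without DENWT_307 and 0.142 for Tnf without DENWT_996.

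Some systems showed few differences. Among 58 nuclear-encoded genes of oxidative phosphorylation none was called (1 higher and 0 lower in DESeq2, 1 and 0 in limma-voom, and 4 and 0 at an unadjusted p under 0.05 in edgeR), nor among 18 circadian clock genes (1 higher and 0 lower in DESeq2, 1 and 0 in limma-voom, and 1 and 0 at an unadjusted p under 0.05 in edgeR). Without DENWT_995, edgeR called 5 of the former higher and 1 of the latter lower. Afp, the fetal liver protein, did not pass at 4.09 and 6.92 CPM in the knockout and 6.61, 6.54 and 5.78 CPM in the wild-type libraries (−0.19 ± 0.24, adjusted p = 0.6). Genes that start within 5 Mb of Trim21 were examined on their own, since the labels do not give the allele's strain of origin. Of 83 tested neighbours 13 rose and 6 fell, 22.9% against 22.1% of all tested genes. They included the TRIM genes Trim12a, Trim12c, Trim30a, Trim30d and Trim34a, part of a cluster in which several genes are induced by interferon, with rises of 0.73 to 1.19. Under PBS their log2 differences were −0.14 to 0.11, and none was called. When DENKO_141 was left out, the adjusted p was 0.18 for Trim12a, 0.19 for Trim12c, 0.157 for Trim30a, 0.0735 for Trim30d and 0.127 for Trim34a. It was 0.13 for Trim12a and 0.0554 for Trim12c without DENKO_309, 0.0593 for Trim12a without DENWT_307 and 0.14 for Trim12a, 0.102 for Trim12c, 0.0636 for Trim30a and 0.0504 for Trim34a without DENWT_996.

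Without injury the genotypes hardly differed. Between PBS knockout and PBS wild-type livers Trim21 was the only gene called (1 of 13255, 0.00754%), also with DESeq2 and limma-voom, and 508 genes (3.83%) had an unadjusted p under 0.05. The difference of the genotype effect between DEN and PBS, tested as an interaction in the same fit, passed for 872 genes (6.58%), 540 (4.07%) positive and 332 (2.5%) negative. It was 5.78 ± 0.58 (SE) for Cyp1a2 (adjusted p = 0.00181), 3.92 ± 0.31 for Rgn (6.2e-05), 2.13 ± 0.31 for Gbp7 (0.00682) and −1.79 ± 0.29 for Tnfrsf12a (0.00968). These 4 kept the call in each fit that left out 1 of the 11 libraries, a check chosen after seeing the data. The number of interaction calls itself was 26 without DENKO_141, 321 without DENWT_996, 372 without PBSKO_154, and 385, 222 and 257 without PBSWT_541, PBSWT_542 and PBSWT_545, and DESeq2 gave 1447. For Mki67 and Ccnd1 the interaction did not pass (2.29 ± 0.65, adjusted p = 0.0519, and 2.29 ± 0.65, 0.0684).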

How the data were processed

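RNA-seq of mouse liver was made from about 500 ng RNA with an rRNA depletion kit, per the labels' protocols. The authors deposited 1 table of raw read counts per gene and library. The submitters' processing notes name bcl2fastq, TopHat2, HTSeq and build mm9, while versions, annotation, strand setting and the treatment of reads that match several genes are not given there. The 5 tally lines of the counter, 61.4% to 69.6% of all counts in the DEN libraries, entered neither library sizes nor tests.

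From the 22609 genes, edgeR 4.0.16 (R 4.3.3) kept 13255 by its filter on low counts, and a quasi-likelihood model with TMM scaling and the robust option was fitted to the 11 libraries of 4 groups (DENHET_136 left out). Contrasts were DEN knockout against DEN wild type, the same under PBS, and their difference. P-values were adjusted over all tested genes by the Benjamini-Hochberg method and genes were called at an adjusted p under 0.05. The ± values are standard errors unless given as SD. CPM are TMM-scaled over all 12 libraries. The fit was tested on simulated data. Alternatives were DESeq2 1.42.0, limma-voom (limma 3.58.1), RLE and upper-quartile scaling, other filters, the 5 DEN libraries alone, 12 libraries, no robust option, and each library left out. With 2 knockout libraries the precision is limited by their number more than by depth, and counting intervals cover counting error only.

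Members and gene lists were chosen with earlier results of these data known. Genes were named by rule: Trim21, the 10 largest changes per direction among called genes with a mean log2 CPM of at least 1 and no overlap between groups, up to 3 called members with the smallest p per direction of each of 54 lists, called genes within 5 Mb of Trim21, and preset genes of the antioxidant response, DEN activation, p53, the cell cycle and cytokines. Others are marked in the text, and some named genes are not reported here. Promoter letters come from RefSeq windows of GRCm38.p6, matched by symbol.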

Additional observations from a re-analysis of the deposited data

Results flagged for a closer look

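The effect of genotype differed between DEN and PBS livers for 72 of the 108 genes named above that were called in the DEN comparison. This is by edgeR's interaction term at an adjusted p under 0.05, which 872 of 13255 tested genes (6.58%) passed. Many of the 108 were named for large differences under DEN, which enter the interaction. Their higher share follows in part from that choice. The values are log2 differences of the genotype effect, DEN minus PBS. The highest were 5.78 for Cyp1a2, 5.13 for Hsd3b5, 4.91 for Slco1a1, 4.65 for Fam55b, 4.64 for Cyp2c55, 4.33 for Serpina6, 4.18 for Slc22a28, 3.92 for Rgn, 3.84 for Akr1c6, 3.81 for Inmt, 3.42 for Cyp2c37, 3.25 for Cd8a and 3.07 for Itgax. Intermediate values were 2.90 for Aurkb, 2.88 for Notum, 2.70 for Tk1, 2.69 for Otc, 2.69 for Ugt2b1, 2.68 for Cxcl9, 2.64 for Lgr5, 2.63 for Lipc, 2.54 for Gulo, 2.32 for C9, 2.27 for Cyp27a1, 2.26 for Cyp2c44, 2.17 for Cyp4f14, 2.13 for Gbp7 and 2.13 for Gsta4. The remaining positive values were 1.95 for H2-Aa, 1.93 for Gstm1, 1.93 for Mlxipl, 1.90 for Gsta3, 1.74 for Tbx3, 1.71 for Irf7, 1.70 for Tm7sf2, 1.69 for H2-Ab1, 1.67 for Cd74, 1.55 for Il18, 1.46 for Acaca, 1.40 for C6, 1.33 for Trim30d, 1.30 for Axin2, 1.28 for Bst2, 1.26 for Cyp4f15, 1.26 for Psmb8, 1.23 for Znrf3, 1.21 for Aox1, 1.09 for Rnf43, 1.09 for Serpina10, 1.02 for Mpeg1, 1.01 for Ikbke, 0.92 for Gclm and 0.82 for Nfe2l2. Negative values were −5.07 for Igdcc4, −4.67 for Orm3, −4.59 for Bmper, −3.22 for Gzmm, −3.16 for Lcn2, −2.60 for Cidec, −2.23 for Acot2, −2.17 for Cd14, −1.89 for Apoa4, −1.84 for Mcm7, −1.79 for Tnfrsf12a, −1.63 for Apoc2, −1.53 for Ppp1r15a, −1.47 for Hsd17b13, −1.45 for Cgref1, −1.44 for Gar1, −1.32 for Ddx21, −1.18 for Slc3a2 and −1.03 for Ehhadh. In fits that left out 1 of the 11 libraries, chosen after seeing the data, 42 to 66 of the 72 kept the call without any 1 library other than DENKO_141. Without DENKO_141 12 did, namely Akr1c6, Cyp1a2, Cyp4f14, Fam55b, Gbp7, Gulo, Inmt, Mlxipl, Rgn, Serpina6, Slc22a28 and Tnfrsf12a, with DENKO_309 assumed to vary like the other groups.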

How the results depend on the processing

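The number of genes called between DEN knockout and DEN wild type ranged from 256 to 2882 when 1 of the 5 DEN libraries was left out, with 206 to 1516 higher and 50 to 1366 lower. With the other tools, scalings, filters and sample sets it ranged from 2621 to 3324, and no named gene reversed in any fit. Of the 239 named called genes, 71 kept the call without DENKO_141, 179 without DENKO_309, 214 without DENWT_307, 218 without DENWT_995 and 164 without DENWT_996. The interaction gave 26 to 1161 calls when 1 of the 11 libraries was left out and 1447 with DESeq2, against 872. Other settings ended the call of a few genes described above. With edgeR on the 5 DEN libraries alone the adjusted p was 0.0708 for Cat, 0.0693 for Cyp2a12, 0.0597 for Cyp2d9 and 0.0526 for Trim12a. With no filter on low counts it was 0.0522 for Cyp2a12, 0.0735 for Saa1, 0.0524 for Saa2 and 0.0723 for Txnip. Upper-quartile scaling gave 0.0582 for Cyp2a12 and 0.0521 for Gpx3, the fit without the robust option 0.0512 for Gpx3, and limma-voom 0.0539 for Cyp2u1. The causes of these changes were not tested. No paired analysis was possible because no title number occurs in 2 groups. Genes under about 1 CPM, such as Tnf and Aurkb, rest on few counts per library.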
